A study of Mus musculus with 11 samples.

Results

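The 85 genes described here are the nuclear genes of oxidative phosphorylation, which encode most subunits of the respiratory chain and of the mitochondrial ATP synthase. They were chosen by symbol from the 24421 genes in the count files. The rule took every gene named Nduf with a, b, c, s or v and a number, every gene whose name starts with Uqcr, Cox4 to Cox8 or Atp5, the genes Sdha to Sdhd, and Cyc1. It gave 37 genes for complex I, 4 for complex II, 9 for complex III, 18 for complex IV and 17 for complex V. The complexes follow the symbols, so Ndufa4 and Ndufa4l2 are counted under complex I although the Ndufa4 protein is now placed in complex IV. Cox7a2l encodes a factor that joins complexes into supercomplexes, and Atp5s and Atp5sl encode assembly-related factors rather than ATP synthase subunits.

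Complex I (NADH dehydrogenase) and complex II (succinate dehydrogenase) pass electrons to ubiquinone, complex III hands them to cytochrome c, and complex IV passes them to oxygen. Complexes I, III and IV pump protons, and complex V, the ATP synthase, uses the resulting gradient to make ATP. Complexes I, III, IV and V combine nuclear subunits with a few encoded in mitochondrial DNA, while complex II is wholly nuclear. Retinal ganglion cells are known for a high energy demand, and inherited defects of complex I are known to injure them.

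The cells were J-RGCs, one type of retinal ganglion cell (RGC), from mice in which the gene for the T-box transcription factor Tbr1 was knocked out (Tbr1 KO) and from wild-type controls (WT). Both genotypes carried a transgenic line that marks J-RGCs with green fluorescent protein, both were on a mixed background of C57BL/6 and CD1, and both were taken at postnatal day 4 to 5. The labels give neither the promoter of the reporter nor the design of the Tbr1 allele. Sorted pools of 100 cells gave 1 RNA sequencing library each, 6 from 4 Tbr1 KO animals and 5 from 4 WT animals. Tbr1 KO animal a gave libraries 1 and 2, animal b libraries 3 and 4, animal c library 5 and animal d library 6. WT animal a gave library 1, animal b libraries 2 and 3, animal c library 4 and animal d library 5.

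The libraries held between 8609845 (WT library 3) and 34718693 (WT library 4) reads assigned to genes. Pools of 1 animal were added up, and the replicate in every comparison was the animal, 4 Tbr1 KO against 4 WT. Levels are given as CPM, counts scaled to a common library total after TMM normalization, and levels of different genes are compared per kilobase of exon (RPKM). Tbr1 itself was counted at 94.2 to 145 CPM in Tbr1 KO animals and at 155 to 193 CPM in WT animals, with no overlap. Any exons left by the allele still count towards the gene, so the labels cannot be checked from it. WT library 2 stood apart from the other 10 libraries in the summed level of the oxidative phosphorylation genes, and results that rest on it are given with and without it. The 15 pan-RGC markers summed to 19176 to 21067 CPM in Tbr1 KO animals and 18498 to 21509 CPM in WT animals. Single markers of this list differed more than their sum, which is mostly Nefl, Tubb3, Gap43 and Sncg. Of the 15, 0 were called by edgeR with Benjamini-Hochberg adjustment, where 0.287% of all 13957 tested genes were. By the same test 6 had an unadjusted p under 0.05, 2 of them higher (Nefl and Nefm) in Tbr1 KO animals. The other 4 (Pou4f1, Pou4f2, Isl1 and Thy1) were lower in Tbr1 KO animals. Over all tested genes 7.09% had such a p, 3.4% higher and 3.7% lower. Pou4f2 was at 124 to 199.6 CPM in Tbr1 KO animals and 264 to 295 CPM in WT animals, with an adjusted p of 0.0681 (edgeR, Benjamini-Hochberg adjustment), and Thy1 at 259.7 to 359 CPM in Tbr1 KO animals and 382 to 458 CPM in WT animals. In bulk pools, fewer cells of a type and less RNA per cell cannot be told apart.

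Promoter windows of RefSeq (GRCm38.p6), 250 bases before to 50 after each annotated start, were found for 67 of the 85 genes, as 73 windows. NRF1, the ETS factor GABP and YY1 are transcription factors known to regulate many respiratory chain genes. The NRF1-type motif GCGCATGCGC, a palindrome, was in 6.85% of the 73 windows and in 0.971% of all 32851 RefSeq windows. The ETS-type motif CCGGAAG, searched on both strands, was in 21.9% of the windows of these genes and in 8.86% of all windows. On the gene's own strand alone it was in 6.85% of the windows of these genes and in 4.77% of all windows. The YY1-type motif AAGATGGC, on both strands, was in 15.1% of the windows of these genes and in 2.75% of all windows. The T-box motif AGGTGTGA, the kind that Tbr1 is known to bind, was in 0 of the 73 windows and in 1.28% of all windows, which says only that these letters are not in these windows. No match of one motif overlapped a match of another in the windows of these genes, and a match is a description of the letters, not a measured site. The windows were not matched for base composition.

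The NRF1-type motif was in the windows of Atp5k, Cox6a1, Uqcrc1, Atp5g2 and Ndufa11. The 100 bases that end just before the annotated start are shown for the pair with the highest level among the genes with this motif in that stretch, and likewise for the ETS-type motif, with the motif in capitals (written as its reverse complement, CTTCCGG, where it lies on the other strand). The stretches are chr17:56717662-56717761 (plus strand) for Ndufa11, chr5:108434400-108434499 (minus) for Atp5k, chr7:30626115-30626214 (minus) for Cox6b1 and chr5:115348959-115349058 (minus) for Cox6a1.
Ndufa11: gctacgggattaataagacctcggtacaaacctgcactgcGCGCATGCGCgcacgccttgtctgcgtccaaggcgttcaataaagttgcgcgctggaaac
Atp5k: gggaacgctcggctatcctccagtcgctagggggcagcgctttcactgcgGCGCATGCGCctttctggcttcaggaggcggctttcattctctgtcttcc
Cox6b1: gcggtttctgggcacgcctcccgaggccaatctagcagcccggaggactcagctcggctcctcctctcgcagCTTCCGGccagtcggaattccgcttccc
Cox6a1: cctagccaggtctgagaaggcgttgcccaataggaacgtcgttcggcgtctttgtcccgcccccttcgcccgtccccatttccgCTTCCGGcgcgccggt

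The YY1-type motif lay in a narrow range of positions in these genes. It occurred at 10 sites on the gene's own strand, and at 9 of them its first base lay 23 to 39 bases after the annotated start. Of these 9 genes, 7 belong to complex I and the other two to the complex V symbols. In all 9 the ATG within the motif was an annotated start codon in GENCODE. All 9 lay wholly within bases 21 to 50 after the start. The site of Atp5sl also lies at position -53 from another annotated start. A site found in more than one window was counted by the start that placed it within bases 21 to 50, where there was one. This was done for these genes and for all genes. Over all RefSeq windows, 157 of 550 sites on the gene strand (28.5%) lay within bases 21 to 50, and 61.8% of those 157 held a start codon. The stretch of bases 21 to 50 was drawn around the sites of these genes. A high share of their own sites in it was therefore set in advance, and the shares are a description with no test. The letters also match the core of the TISU element, an element known to direct both transcription and translation initiation at very short leaders. Bases 21 to 50 after the start are shown for the 9 genes, with the motif in capitals, so that its distance from the start can be read across genes. The positions are chr7:3617393-3617422 (plus) for Ndufa3, chr3:51408906-51408935 (minus) for Ndufc1, chr5:145191492-145191521 (minus) for Atp5j2, chr10:80249469-80249498 (plus) for Ndufs7 and chr7:25619434-25619463 (plus) for Atp5sl. For the others they are chr6:126849095-126849124 (minus) for Ndufa9, chr13:73328433-73328462 (minus) for Ndufs6, chr13:114388045-114388074 (minus) for Ndufs4 and chr19:44555393-44555422 (minus) for Ndufb8.
Ndufa3: acAAGATGGCcgggagtaagtacaggtttg
Ndufc1: acAAGATGGCgccgtccgtagtgctgcgct
Atp5j2: ttcAAGATGGCgtcactcggtgagtactcg
Ndufs7: ggccAAGATGGCggcgctggcgggtgagtg
Atp5sl: cctggcAAGATGGCggcgcccagagcggta
Ndufa9: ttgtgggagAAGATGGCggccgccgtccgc
Ndufs6: aagggtcaccggcAAGATGGCggcggtgct
Ndufs4: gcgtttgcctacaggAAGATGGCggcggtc
Ndufb8: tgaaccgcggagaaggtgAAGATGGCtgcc

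J-RGCs expressed the oxidative phosphorylation genes at high levels. Together the 85 genes took 1.67% of all counts. Among the 13840 tested genes with an annotated length, the 80 tested members had a median RPKM of 99.7 and all genes one of 4.58. The median member stood at the 96.1th percentile of RPKM, 60 of the 80 stood above the 90th percentile, and 77 stood above the median. Mean RPKM over members was 102 for complex I, 49.5 for complex II, 130 for complex III, 128 for complex IV and 116 for complex V. Of the members' counts, 34.0% fell on complex I, 3.47% on complex II, 11.7% on complex III, 16.5% on complex IV and 34.3% on complex V. Levels of different genes depend on the length used, and mean RPKM was higher for each complex when the median protein-coding transcript of the GENCODE basic set replaced the union of exons, to 187 for complex I and 280 for complex V. Complex II had the lowest mean under both lengths.

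**Figure D1:**
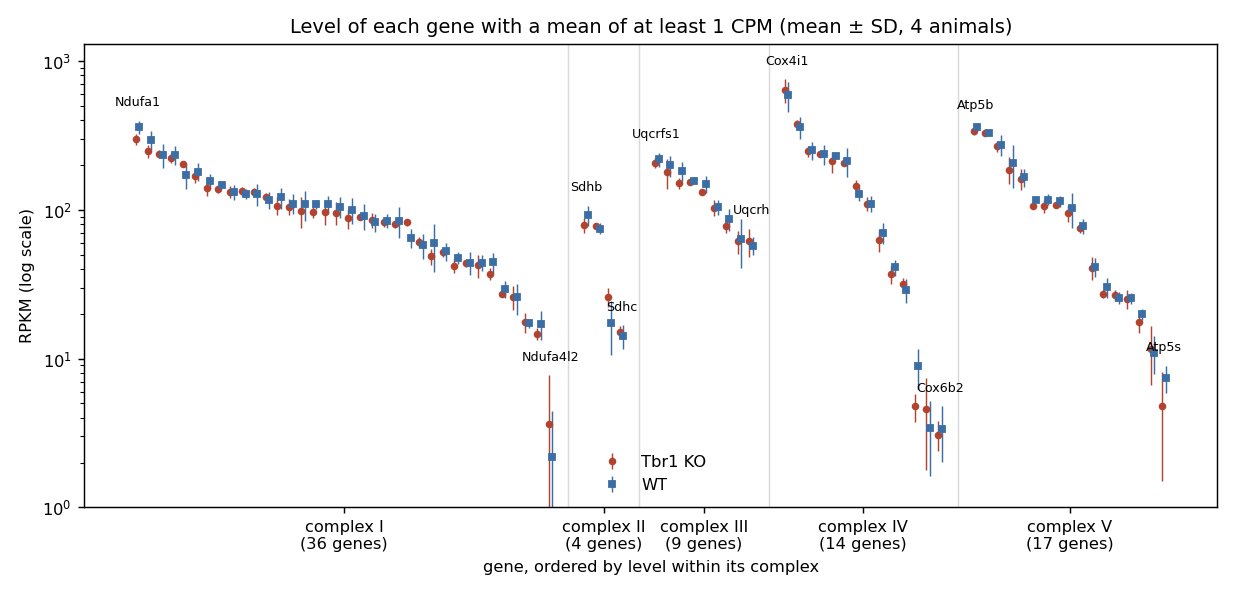
Level of each gene with a mean of at least 1 CPM, as RPKM on a log axis, ordered by level within its complex, with the mean and SD of 4 Tbr1 KO animals (red circles) and 4 WT animals (blue squares). Most genes lie near 100 RPKM in both genotypes, and the lowest of complexes I and IV, such as Ndufa4l2 and Cox6b2, lie below 10 RPKM.

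Within each complex the levels spread over a wide range. In complex I, Ndufa1, an accessory subunit of the membrane arm, was highest at 297 ± 24.0 RPKM in Tbr1 KO animals and 359 ± 37.8 RPKM in WT animals (SD, n = 4 each). Ndufa4 followed at 248 ± 26.2 RPKM in Tbr1 KO animals and 294 ± 41.4 RPKM in WT animals. Per basic transcript the order turned, with Ndufa4 first at 814 RPKM and Ndufa1 at 328 RPKM. Apart from the paralog Ndufa4l2, the lowest tested gene of complex I was the accessory subunit gene Ndufb2, at 14.7 ± 1.31 RPKM in Tbr1 KO animals and 17.0 ± 3.77 RPKM in WT animals.

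The 4 genes of complex II formed a high and a low pair. Sdhb, which encodes the iron-sulfur subunit, had 79.1 ± 8.94 RPKM in Tbr1 KO animals and 92.1 ± 14.0 RPKM in WT animals. Sdha, the flavoprotein that oxidizes succinate, had 77.4 ± 3.44 RPKM in Tbr1 KO animals and 74.8 ± 6.20 RPKM in WT animals. The membrane anchors were lower, Sdhd at 25.9 ± 3.72 RPKM in Tbr1 KO animals and 17.4 ± 6.83 RPKM in WT animals, and Sdhc at 15.1 ± 1.48 RPKM in Tbr1 KO animals and 14.2 ± 2.58 RPKM in WT animals. Values are means with SD over 4 animals.

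In complex III the Rieske iron-sulfur protein gene Uqcrfs1 was highest per exon union, at 208 ± 16.2 RPKM in Tbr1 KO animals and 218 ± 23.6 RPKM in WT animals. Uqcr10 and Uqcr11, small accessory subunits, came next at 188 and 166 RPKM over all animals, and Cyc1, which encodes cytochrome c1, had 155 RPKM. The lowest were Uqcrb and Uqcrh at 62.4 and 59.3 RPKM. Per basic transcript the order turned here too, with the accessory subunit gene Uqcrq first at 378 RPKM and Uqcrfs1 at 213 RPKM, rank 6 of 9. In complex IV the regulatory subunit gene Cox4i1 was the highest of all 85 genes under both lengths, with 638 ± 113 RPKM in Tbr1 KO animals and 587 ± 131 RPKM in WT animals. Cox8a, Cox6b1 and Cox6a1, structural subunits, had 369, 249 and 238 RPKM over all animals, and the lowest tested genes were the paralogs Cox4i2 and Cox6b2 at 4.00 and 3.23 RPKM.

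In complex V the catalytic core led per exon union. Atp5b, the catalytic beta subunit, had 339 ± 21.4 RPKM in Tbr1 KO animals and 361 ± 18.9 RPKM in WT animals. Atp5a1, the alpha subunit, had 329 ± 17.5 RPKM in Tbr1 KO animals and 330 ± 13.6 RPKM in WT animals. Atp5o and Atp5j, subunits of the stalk that holds the catalytic head, had 270 and 197 RPKM over all animals. Per basic transcript Atp5j was first at 830 RPKM and Atp5b second at 775 RPKM. Atp5o followed at 636 RPKM, and Atp5a1 was at rank 4 with 401 RPKM. The lowest were Atp5g2 and Atp5s, at 11.3 and 6.10 RPKM per exon union.

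Ndufs5, an accessory subunit gene of complex I, was listed at 0 in all 11 libraries. Its transcript shares 31.1% of its 50-base windows with other annotated transcripts, and the sharing gene BC002163 had 7 to 42 counts per library. Reads that match more than one place can be lost in counting, and 35 of the 85 genes share at least 1 such window with a transcript elsewhere, 32 of them with a pseudogene. The 10 genes that share at least 25% of their windows (Atp5g2, Atp5l, Cox7c, Atp5h, Uqcrb, Ndufb4, Ndufs3, Ndufs5, Ndufa12 and Cox5b) had a median of 51.6 RPKM. The median was 104 RPKM for the 25 genes that share fewer and 84.6 RPKM for the 50 that share none. Levels of those 10 genes are uncertain for this reason. Of the 10, 9 had enough counts to be tested, and Ndufs5 alone was at 0. Genes that share more of their windows than Ndufs5 were counted. Mean levels over all animals were 234 CPM for Ndufs3 (35.8% shared), 184 CPM for Atp5l (68.5%) and 18.9 CPM for Atp5g2 (87.4%). Why Ndufs5 was listed at 0 was not tested.

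Several subunits of complex IV exist as a widely expressed form and a tissue-restricted paralog, and nearly all counts fell on the first. Cox4i2, the lung-type form of Cox4i1, took 0.355% of the counts of the pair in Tbr1 KO libraries (95% exact Clopper-Pearson interval 0.327% to 0.386%) and 0.299% in WT libraries (0.269% to 0.331%). Without Tbr1 KO library 5 its share in Tbr1 KO libraries was 0.275%. Cox6b2, the testis-type form, took 1.98% of the counts of its pair with Cox6b1 in Tbr1 KO libraries and 2.00% in WT libraries. Tbr1 KO library 3 held 231 of the 583 Cox6b2 counts, and without it the Tbr1 KO share was 1.53%. The WT share was 1.76% without WT library 1 and 2.30% without WT library 5. Cox7a1, the muscle-type form, took 1.29% of its pair with Cox7a2 in Tbr1 KO libraries (1.17% to 1.42%) and 2.18% in WT libraries (2.01% to 2.36%). These intervals cover counting error only, since reads without molecular identifiers are not independent molecules. Ndufa4l2, a paralog of Ndufa4 known to be induced by hypoxia, took 1.04% of its pair in Tbr1 KO libraries and 0.619% in WT libraries. That order rested on Tbr1 KO library 5, which held 356 of the 599 counts, and without it the Tbr1 KO share was 0.526%. Without WT library 5, with 173 of the 330 counts, the WT share was 0.379%.

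The other tissue-restricted forms were at or near 0. Cox6a2, the muscle-type form of Cox6a1, had 11 counts in 1 Tbr1 KO library and 0 counts in all WT libraries, where 0 counts allow a share of up to 0.0137% of the pair. Cox8c, a testis-type form, had 0 counts in Tbr1 KO libraries, which allows up to 0.00782% of its pair with Cox8a, and 19 counts in 1 WT library. Cox8b had 0 counts in all 11 libraries. Cox7b2 was counted in 4 libraries, at 0.801% of its pair with Cox7b in Tbr1 KO libraries and 0.417% in WT libraries. Of its counts, 72 of 102 in Tbr1 KO came from library 6, without which the share was 0.309%, and all 47 in WT came from library 4, so the shares rest on single libraries. Of the 85 genes, Ndufs5, Cox8b, Cox8c, Cox6a2 and Cox7b2 did not pass the filter on low counts, and the other 80 were tested.

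**Figure D2:**
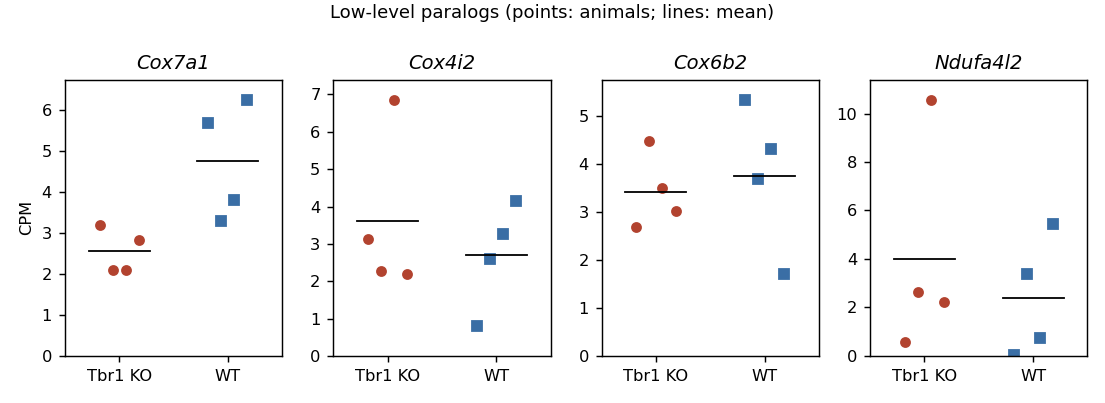
CPM of 4 low-level paralogs in each animal, Tbr1 KO (red circles, left) and WT (blue squares, right), with lines at the means. Cox7a1 reaches at most 3.21 CPM in Tbr1 KO animals and at least 3.29 CPM in WT animals, while Cox4i2, Cox6b2 and Ndufa4l2 overlap between genotypes.

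The c subunit that forms the rotor ring of complex V is encoded by 3 genes with the same mature protein. Atp5g1 took 77.3% ± 4.20 of their counts in Tbr1 KO animals and 77.8% ± 3.47 in WT animals (SD, n = 4 each). Atp5g3 took 18.7% ± 2.96 in Tbr1 KO animals and 18.4% ± 2.38 in WT animals, and Atp5g2 took 4.04% ± 1.58 in Tbr1 KO animals and 3.78% ± 1.18 in WT animals. Per exon union Atp5g1 and Atp5g3 took 59.1% and 31.9% in Tbr1 KO animals and 59.8% and 31.7% in WT animals. Per basic transcript length their shares came close, at 47.1% and 41.9% in Tbr1 KO animals and 47.8% and 41.8% in WT animals. The order held, but the size of the gap depended on the length used. Atp5g2 shares 87.4% of its windows with other transcripts, the pseudogene Gm10175 among them, so its share is uncertain.

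No oxidative phosphorylation gene passed the test between Tbr1 KO and WT animals. At a Benjamini-Hochberg adjusted p under 0.05 by edgeR's quasi-likelihood test, 0 of the 80 tested members were called. Of all 13957 tested genes, 40 or 0.287% were called, 0.086% as higher and 0.201% as lower in Tbr1 KO animals. At an unadjusted p under 0.05 there were 2 members, Ndufa9 on the higher and Ndufa1 on the lower side, where all genes gave 7.09%, split into 3.4% higher and 3.7% lower in Tbr1 KO animals. DESeq2 on the same sums also called 0 members. A share of 0 beside a background of 0.287% is no result about the members. The 95% interval of the fold change lay within 1.5-fold in both directions for 68 of 80 members (85%) and within 2-fold for 74. Among genes with a mean of at least 10 CPM, the interval lay within 1.5-fold for 68 of 76 members (89.5%) and for 3403 of 9192 genes in all (37.0%), most of which are expressed at lower levels. Log2 fold changes ran from -0.89 for Cox7a1 to 0.73 for Ndufa4l2, and 69 members had a size below 0.25.

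**Figure D3:**
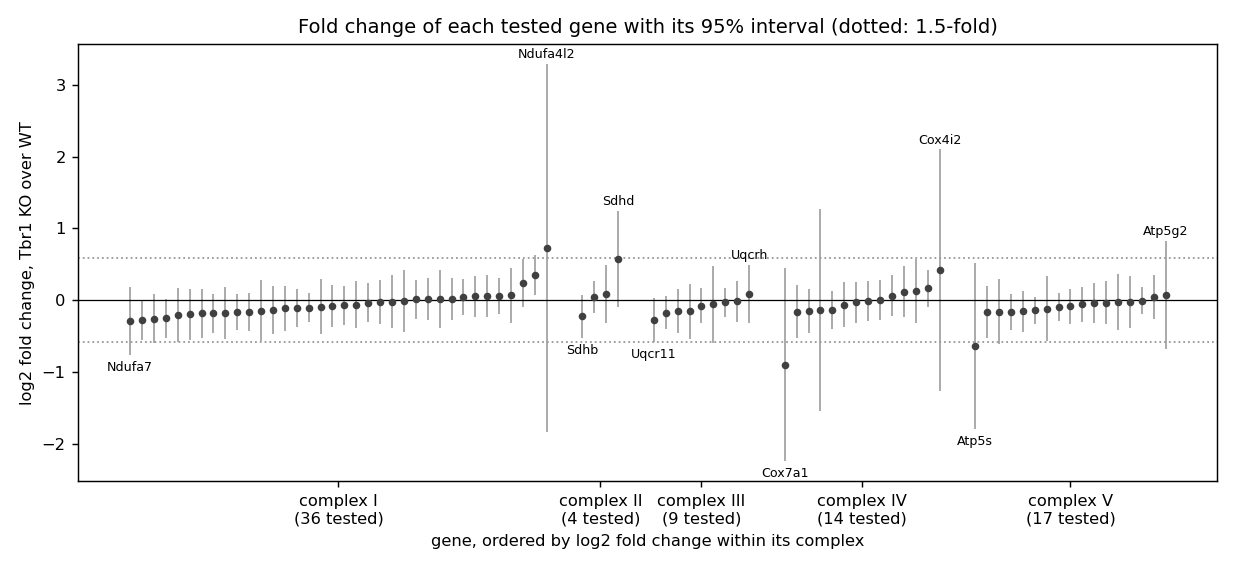
Log2 fold change of Tbr1 KO over WT with its 95% interval for the 80 tested genes, ordered within each complex, with dotted lines at 1.5-fold and the extreme genes of each complex named. Most points lie between -0.25 and 0.25, and wide intervals belong to low-level genes such as Ndufa4l2, Cox4i2 and Cox7a1.

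Ndufa9, an accessory subunit that sits beside the ubiquinone site of complex I (chr6:126821721-126849136, minus strand), had the smallest p of the set. It was at 171, 185, 171 and 165 CPM in Tbr1 KO animals a to d, against 166, 131, 124 and 123 CPM in WT animals a to d. WT animal a lay within the range of the Tbr1 KO animals, and the other 3 WT animals lay below all of them. The log2 fold change was 0.35 ± 0.13 (SE), with an unadjusted p of 0.0184 and an adjusted p of 0.545 (edgeR, Benjamini-Hochberg adjustment). Its log2 fold change stayed between 0.31 and 0.46 under the other settings tried, with adjusted p from 0.229 to 0.820, each adjusted by Benjamini-Hochberg in edgeR, DESeq2 or limma. An exon overlaps 1700018A23Rik on the opposite strand, and the library method does not mark the strand.

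Ndufa1, at 37187588 to 37191163 on the minus strand of chromosome X, was at 117, 126, 117 and 138 CPM in Tbr1 KO animals a to d, against 133, 172, 147 and 150 CPM in WT animals a to d. Tbr1 KO animal d lay above WT animal a, so the genotypes overlapped. Its log2 fold change of -0.28 ± 0.12 (SE) had an unadjusted p of 0.0462 and an adjusted p of 0.689 (edgeR, Benjamini-Hochberg adjustment). Without WT library 2 it was -0.21 with an unadjusted p of 0.0941 by the edgeR fit across all genes.

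The animals of the 2 genotypes did not overlap for 2 of the 80 members, Cox7a1 and Atp5f1, both lower in Tbr1 KO animals, where 5.06% of all genes showed no overlap and 2.48% showed it with Tbr1 KO below WT. Cox7a1 was at 3.21, 2.10, 2.10 and 2.82 CPM in Tbr1 KO animals a to d, against 5.69, 3.29, 3.80 and 6.25 CPM in WT animals a to d. The highest Tbr1 KO animal and the lowest WT animal were close. Its log2 fold change of -0.89 ± 0.62 (SE) had an adjusted p of 0.876 (edgeR, Benjamini-Hochberg adjustment).

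Atp5f1, the b subunit of the peripheral stalk of the ATP synthase, was at 449, 435, 414 and 448 CPM in Tbr1 KO animals a to d, against 466, 489, 488 and 478 CPM in WT animals a to d. The gap between genotypes was small beside the level. Atp5f1 had a log2 fold change of -0.14 ± 0.09 (SE) at an adjusted p of 0.853 (edgeR, Benjamini-Hochberg adjustment). Exons of Atp5f1 overlap Wdr77 and Gm42890 on the opposite strand.

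Sdhd, a membrane anchor of complex II, was at 38.0, 30.8, 31.7 and 26.9 CPM in Tbr1 KO animals a to d, against 10.04, 28.02, 27.5 and 19.9 CPM in WT animals a to d. WT animal a was the lowest, and Tbr1 KO animal d lay below WT animals b and c. For Sdhd this came to a log2 fold change of 0.57 ± 0.31 (SE), adjusted p = 0.784 (edgeR, Benjamini-Hochberg adjustment), which was 0.35 without WT animal a.

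Ndufa4l2 had the largest positive log2 fold change, 0.73 ± 1.18 (SE), and rested on 1 animal. It was at 0.579, 2.62, 10.6 and 2.23 CPM in Tbr1 KO animals a to d, against 0.0403, 3.39, 0.726 and 5.43 CPM in WT animals a to d. Without Tbr1 KO animal c the log2 fold change was -0.40. Atp5s, at -0.63 ± 0.53 (SE), ranged from 1.85 to 16.5 CPM in Tbr1 KO animals and from 11.9 to 19.0 CPM in WT animals, with the lowest value in Tbr1 KO animal b. Its log2 fold change was -0.29 without that animal and ran down to -1.29 (limma-voom with libraries tied to their animal) over the other settings tried, with adjusted p from 0.498 to 0.9999, each adjusted by Benjamini-Hochberg in edgeR, DESeq2 or limma. Ndufa7, an accessory subunit of complex I, stood at -0.28 ± 0.22 (SE) in log2 fold change, and without WT animal a, which had the highest level, it was -0.02.

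Most members had a log2 fold change just below 0. It was positive for 24 and negative for 56 of the 80, so 30% were positive, where 49.9% of all tested genes were. The median was -0.06 over the members and -0.00 over all tested genes. By complex the median was -0.07 for complex I (12 of 36 positive), 0.07 for complex II (3 of 4), -0.07 for complex III (1 of 9), -0.02 for complex IV (6 of 14) and -0.08 for complex V (2 of 17). Members share libraries and are not replicates, so these are descriptions with no test.

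The lean towards lower values rested on WT animal b, and within it on WT library 2. Of the 80 tested members, 38 had their highest animal in WT animal b and 0 had their lowest there. The 85 genes summed to 17094, 15322, 15975, 15859, 16436 and 16699 CPM in Tbr1 KO libraries 1 to 6, against 16469, 20153, 15672, 16260 and 16098 CPM in WT libraries 1 to 5. WT library 2 was the highest of all, while WT library 3 from the same animal lay among the others. The sum per animal was 16376 ± 355 CPM in Tbr1 KO animals and 17051 ± 1454 CPM in WT animals (SD, n = 4 each), a ratio of 0.960. Without WT animal b the ratio was 1.003, the median log2 fold change 0.01, and 41 of 81 tested members were positive. Without WT library 2 the median was 0.02 and 46 of 80 were positive.

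**Figure D4:**
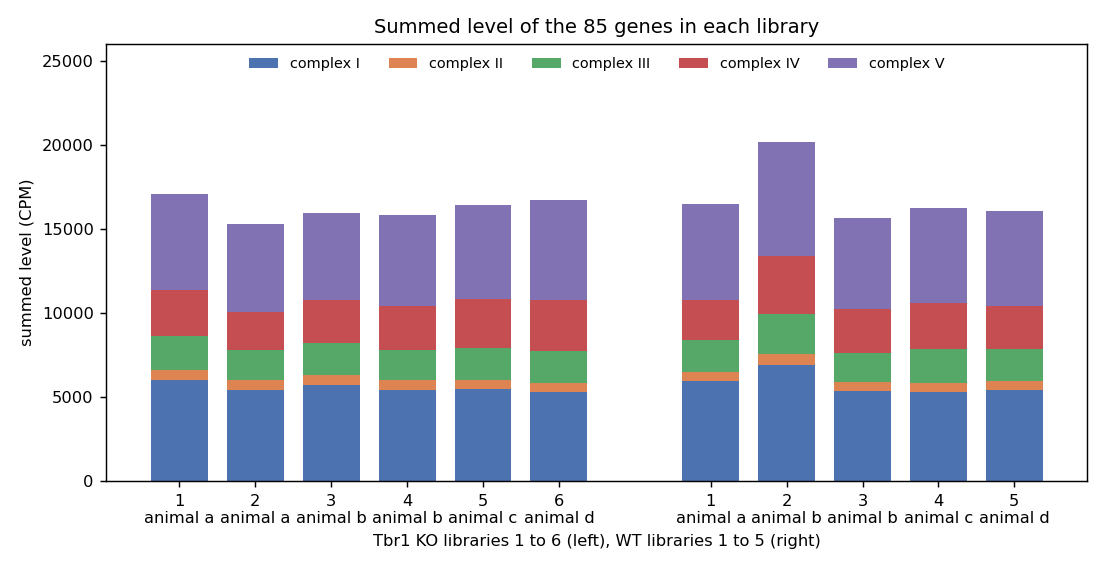
Summed CPM of the 85 genes in each library, stacked by complex, for Tbr1 KO libraries 1 to 6 (left) and WT libraries 1 to 5 (right), with the animal under each bar. WT library 2 reaches 20153 CPM, and the other 10 libraries lie between 15322 and 17094 CPM.

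WT library 2 was higher in other genes too, but not in all. Against the libraries of the other WT animals, the median log2 difference was 0.32 over 76 members, of which 70 were positive, 0.52 over 72 ribosomal protein genes, of which 69 were positive, and 0.01 over 9192 genes with at least 10 CPM. It was 0.19 over 38 assembly factors and 0.03 over 16 genes of the tricarboxylic acid (TCA) cycle. The library also had the highest share of reads that aligned to more than one place, 14.6%, where the others had 13.2% to 13.9%. Its share of reads that HTSeq matched to no annotated feature was the lowest, 19.97%, where the others had 20.8% to 24.8%. The part of these values in the result was not tested.

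By complex, the summed level was 5553 ± 208 CPM in Tbr1 KO animals and 5825 ± 580 CPM in WT animals for complex I, and 577 ± 33.5 CPM in Tbr1 KO animals and 582 ± 45.9 CPM in WT animals for complex II. For complex III it was 1877 ± 32.1 CPM in Tbr1 KO animals and 2019 ± 165 CPM in WT animals. For complex IV it was 2782 ± 247 CPM in Tbr1 KO animals and 2732 ± 390 CPM in WT animals, and for complex V 5586 ± 265 CPM in Tbr1 KO animals and 5893 ± 387 CPM in WT animals (SD, n = 4 each). Each difference was smaller than the SD of the WT animals, a spread that WT animal b widened. Without WT animal b the WT mean was 1939.6 ± 57.1 CPM for complex III, 2549.7 ± 169 CPM for complex IV and 5700.1 ± 14.6 CPM for complex V (SD, n = 3). Against these, the difference from the Tbr1 KO mean was larger than the WT SD in all 3, and for complexes IV and V it was smaller than the SD of the Tbr1 KO animals. The ratio of Tbr1 KO to WT without WT animal b was 0.996 for complex I, 1.03 for complex II, 0.968 for complex III, 1.09 for complex IV and 0.980 for complex V.

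The members varied less between pools of 1 animal than genes at large, except in WT animal b. The median absolute log2 difference between both pools of an animal was 0.18 in Tbr1 KO animal a, 0.13 in Tbr1 KO animal b and 0.39 in WT animal b for 76 members with at least 10 CPM. Over all 9192 such genes it was 0.31, 0.28 and 0.40 in the same animals. The median SD of log2 CPM over animals was 0.14 in Tbr1 KO and 0.21 in WT for the members, and 0.26 in Tbr1 KO and 0.31 in WT for all genes. These genes were not matched to the members for level.

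Markers of other retinal cells moved with genotype in part. The 10 amacrine markers summed to 899 to 1111 CPM in Tbr1 KO animals and 529 to 774 CPM in WT animals, the 7 horizontal cell markers to 109 to 147 CPM in Tbr1 KO animals and 52.8 to 88.7 CPM in WT animals, and the 12 Müller glia markers to 467 to 720 CPM in Tbr1 KO animals and 323 to 426 CPM in WT animals. In each of these 3 lists the ranges of the genotypes did not overlap, and Lhx1 of the horizontal list was at 0 in all animals while Aqp4 and Kcnj10 of the Müller list were near 0. Of the 10 tested Müller markers, Clu and Dkk3 were called as higher in Tbr1 KO animals (edgeR, Benjamini-Hochberg adjustment). Over all tested genes 0.086% were called as higher. The 20 photoreceptor markers summed to 69.7 to 1343 CPM in Tbr1 KO animals and 86.3 to 397 CPM in WT animals, and the 9 bipolar markers to 56.9 to 129 CPM in Tbr1 KO animals and 47.1 to 85.5 CPM in WT animals. The 13 astrocyte, vascular and microglia markers summed to 19.3 to 65.0 CPM in Tbr1 KO animals and 26.0 to 89.97 CPM in WT animals. Of the 7 red blood cell genes, 6 globin genes were listed at 0 in all animals. Their part in the values of the oxidative phosphorylation genes was not tested.

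Of the genes that build or feed the pathway, 0 were called in each of the lists examined at the adjusted threshold (edgeR, Benjamini-Hochberg adjustment). The share called over all tested genes was 0.287%. Of 14 tested complex I assembly factors, 6 had a positive and 8 a negative log2 fold change, of 10 for complexes II and III 6 and 4, of 20 for complex IV 11 and 9, and of 4 for complex V 2 and 2. Of 21 genes for electron carriers and nucleotide exchange, 9 were positive and 12 negative, and of 17 genes of the TCA cycle and pyruvate dehydrogenase, 9 were positive and 8 negative. Of 6 nuclear subunits outside the symbol rule, 4 were positive and 2 negative. The genes with the smallest p in the carrier, complex I assembly and complex IV assembly lists were Coq2 of ubiquinone synthesis at -0.36 ± 0.18, Foxred1 at -0.56 ± 0.26 and Coa3 at -0.32 ± 0.15 in log2 fold change (SE). Next in the same lists were Coq3 at -0.42 ± 0.26, Ndufaf4 at 0.29 ± 0.16 and Coa7 at 0.59 ± 0.29. In the lists of subunits outside the symbol rule, of complex II and III assembly and of the TCA cycle, the smallest p belonged to Usmg5, an ATP synthase subunit gene, at -0.18 ± 0.14, to Sdhaf1 at -0.22 ± 0.21 and to Sucla2 at -0.26 ± 0.14 in log2 fold change (SE). Subunits encoded in mitochondrial DNA were not analysed here.

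Among 21 tested regulators of mitochondrial genes, 11 were positive and 10 negative, with a median log2 fold change of 0.01. At an unadjusted p under 0.05 (edgeR) there were 3, Polrmt and Gabpa on the lower side and Ppargc1b, a coactivator of mitochondrial genes, on the higher side. Over all tested genes 3.7% had such a p on the lower side and 3.4% on the higher side. Ppargc1b was at 10.3, 14.1, 23.9 and 9.81 CPM in Tbr1 KO animals a to d, against 4.88, 6.73, 9.497 and 10.2 CPM in WT animals a to d, and the genotypes overlapped. Its log2 fold change was 0.89 ± 0.40 (SE), at an adjusted p of 0.689 (edgeR, Benjamini-Hochberg adjustment). Polrmt, the RNA polymerase that transcribes mitochondrial DNA, was at 54.2, 38.3, 38.3 and 44.0 CPM in Tbr1 KO animals a to d, against 72.3, 61.1, 74.96 and 65.3 CPM in WT animals a to d. All Tbr1 KO animals lay below all WT animals. The log2 fold change was -0.65 ± 0.17 (SE), with an unadjusted p of 0.00279 and an adjusted p of 0.284 (edgeR, Benjamini-Hochberg adjustment).

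Gabpa encodes the DNA-binding subunit of GABP, the ETS factor whose motif was described for the promoters. It was at 13.8, 12.9, 20.1 and 12.4 CPM in Tbr1 KO animals a to d, against 24.1, 46.2, 17.9 and 35.8 CPM in WT animals a to d. Tbr1 KO animal c lay above WT animal c, and the other Tbr1 KO animals lay below all WT animals. The log2 fold change was -1.07 ± 0.32 (SE), with an unadjusted p of 0.00578 and an adjusted p of 0.359 (edgeR, Benjamini-Hochberg adjustment).

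Of the 4 tested complex V assembly factors, the 2 with an unadjusted p under 0.05 (edgeR) had positive log2 fold changes. Over all tested genes 3.4% had such a p on the higher side. Tmem70, which supports assembly of the ATP synthase, was at 48.8, 60.4, 61.6 and 58.3 CPM in Tbr1 KO animals a to d, against 37.5, 46.2, 36.9 and 42.7 CPM in WT animals a to d, with no overlap. Its log2 fold change was 0.49 ± 0.17 (SE), with an adjusted p of 0.493 (edgeR, Benjamini-Hochberg adjustment). Atpaf1, a chaperone of the beta subunit, was higher by 0.65 ± 0.26 on the log2 scale (SE), with an adjusted p of 0.589 (edgeR, Benjamini-Hochberg adjustment), and its genotypes overlapped.

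**Figure D5:**
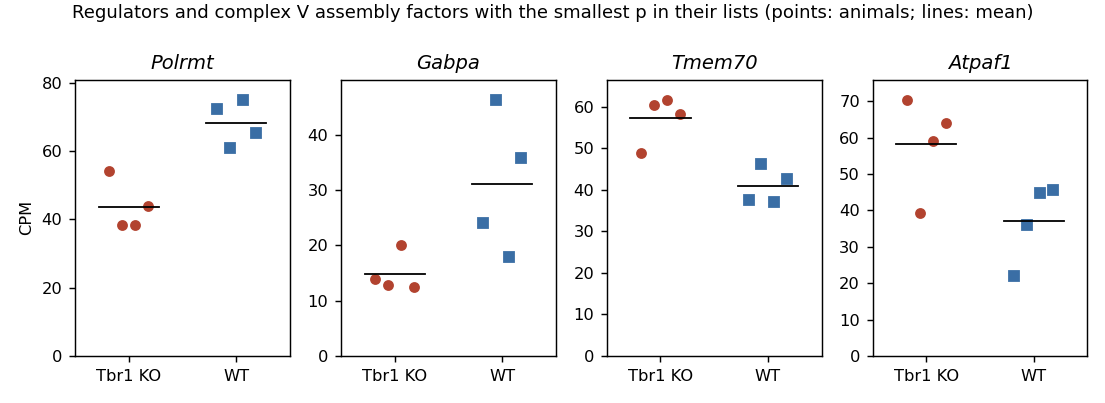
CPM of Polrmt, Gabpa, Tmem70 and Atpaf1 in each animal, Tbr1 KO (red circles, left) and WT (blue squares, right), with lines at the means. Polrmt lies lower and Tmem70 higher in all 4 Tbr1 KO animals than in any WT animal, Gabpa and Atpaf1 overlap, and none of the 4 passed the test over all genes.

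Many oxidative phosphorylation genes share a start region with a neighbour on the opposite strand. A protein-coding gene started within 1000 bases on the opposite strand for 31 of the 85 genes (36.5%), and for 2386 of 22028 protein-coding genes (10.8%). Ndufa1 starts 82 bases from Rnf113a1, which averaged 57.7 ± 25.4 CPM in Tbr1 KO animals and 98.8 ± 19.2 CPM in WT animals (SD, n = 4 each). For Rnf113a1 the log2 fold change was -0.78 ± 0.26 (SE), at an adjusted p of 0.477 (edgeR, Benjamini-Hochberg adjustment). Some other pairs had log2 fold changes of the same sign and some of opposite sign. Ndufa7 was at -0.28 and its neighbour Rps28 at 0.36, and Sdhd was at 0.57 and its neighbour Timm8b at -0.11. A shared shift of neighbours was not tested.

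Atp5j lies between Gabpa and Jam2 on chromosome 16. It starts 700 bases from the start of Gabpa, with exons that overlap it on the opposite strand, and its 3' end lies 1937 bases from the end of Jam2, the gene for which J-RGCs are known. Of the 39 genes called in the whole comparison that have an annotated position, Jam2 was the only one within 10000 bases of any of the 85 genes. Jam2 averaged 107 ± 21.5 CPM in Tbr1 KO animals and 528 ± 85.6 CPM in WT animals (SD, n = 4 each). Atp5j was at 500, 461, 664 and 705 CPM in Tbr1 KO animals a to d, against 462, 921, 509 and 704 CPM in WT animals a to d. The highest Atp5j level was in WT animal b, and the genotypes overlapped widely. The log2 fold change of Atp5j was -0.16 ± 0.21 (SE), with an adjusted p of 0.961 (edgeR, Benjamini-Hochberg adjustment), and it was 0.06 without WT animal b.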

How the data were processed

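Each library came as 1 file of raw counts, which the authors deposited as whole reads for each gene symbol. The submitters' processing notes name Trimmomatic 0.32, TopHat2 2.0.10, HTSeq 0.6.1 and the build mm10 (GRCm38). For the annotation and the strand option, "not given in the sources used here" applies. Lines that name no gene held 36.1% to 39.9% of the reads listed per library and were left out. Animal sums were filtered with filterByExpr (minimum count 10) and scaled with TMM (factors 0.975 to 1.04). Genotypes were compared with edgeR 4.0.16 in R 4.3.3, by its quasi-likelihood test with robust dispersions. It was applied to 13957 genes, all of which entered the Benjamini-Hochberg adjustment, at a threshold of 0.05. The biological coefficient of variation, as a common estimate, was 0.566. The fit was tested on simulated data. An SE was obtained from a log2 fold change and the root of its F statistic. RPKM used the exon union of GENCODE M21, to which all 85 symbols matched (Atp5sl by its newer name). Depth limits the precision of a level, with 1 read worth 0.0179 to 0.0403 CPM per animal. A share of 0 was given the limit of 3 counts.

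Named genes were those past the threshold, with an unadjusted p under 0.05 or with no overlap between genotypes, the 3 largest log2 fold changes in each direction, the 4 highest and 2 lowest levels in each complex, the paralogs, and in each other pathway list the 2 smallest p. Members named only for a promoter motif, shared windows, 0 counts, an animal that stood apart or as background fall outside this rule. So do Ppargc1b, Uqcrq, the pan-RGC and Müller markers named, Rnf113a1, Rps28, Timm8b and the genes beside Atp5j. They were chosen after their values were seen. The members, the lists and this rule were chosen with earlier results of these data known. Alternatives were other scalings, filters and units of replication, DESeq2 1.42.0, limma 3.58.1, a replicate block, leaving out each animal and, chosen after seeing the data, leaving out WT library 2, leaving out each library from the paralog shares and the basic transcript length. Plots were drawn with matplotlib 3.10.9.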

Additional observations from a re-analysis of the deposited data

Results flagged for a closer look

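Single animals that stood far from the other 3 of their genotype were sought in 176 sets of 4 animals, over the 85 genes and the summed levels of each complex and of all genes, leaving out 6 sets with 0 in every animal. In 5 sets an animal with reads stood apart from 3 others with reads, where chance gives about 1 in 20. These 5 are fewer than 1 in 20 of the 176 sets. The sums contain the single genes, so the sets are not independent. The summed level of all 85 genes was 19220 CPM in WT animal b, and 16147 to 16528 CPM in the other WT animals. The summed level of complex V was 6474 CPM in WT animal b, and 5685 to 5715 CPM in the other WT animals. Uqcr10, a small subunit of complex III, was at 144 CPM in WT animal a, and at 104 to 109 CPM in the other WT animals. Atp5h, a stalk subunit of complex V, was at 146.5 CPM in Tbr1 KO animal b, and at 160.1 to 162 CPM in the other Tbr1 KO animals. Ndufs7, a core subunit of complex I, was at 169 CPM in WT animal b, and at 136 to 138 CPM in the other WT animals. In another 3 sets the other animals were all at 0, so that any count stands apart and the chance of 1 in 20 does not apply. Cox6a2 was at 0.197 CPM in Tbr1 KO animal b and at 0 in the other Tbr1 KO animals. Cox7b2 was at 1.36 CPM and Cox8c at 0.552 CPM in WT animal c, and both were at 0 in the other WT animals.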

How the results depend on the processing

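No member was called in any of 19 other settings. Over all genes, 40 were called, against 156 by the DESeq2 Wald test, 76 by limma-voom with libraries tied to their animal, 84 with each library as a replicate and 17 to 44 when each animal was left out in turn (18 without WT animal b). In the same leave-one-out fits 20 to 41 members were positive and the median of complex IV ran from -0.055 to 0.11, the highest of each without WT animal b. Without WT library 2, 46 members were positive, the median of complex III was 0.029 and that of complex V 0.0054. A fit with the replicate number as a block called 42 genes and 0 members, with a median of -0.06 over the members. The numbers did not pair the samples (correlation of deviations -0.03 to 0.14 over 5 numbers), and the block is given for completeness only. The level of a complex depended on its measure. In place of the mean RPKM, the median over members was 93.8 for complex I, 140 for III, 52.7 for IV and 99.05 for V. Mean CPM without length was 154 for complex I, 145 for II, 216 for III, 153 for IV and 338 for V. With the basic transcript length mean RPKM was 187 for complex I, 80.4 for II, 225 for III, 220 for IV and 280 for V. The 36 named members gave 680 values under the 19 settings, of which 13 moved by more than 1 SE and 63 changed sign, in 23 members, with 0 called. With only the gene's own strand searched, 7.46% of matched members held the ETS-type motif, against 23.9% with both strands, and the other shares of members were as before. Depth limits statements on Cox6a2, Cox7b2, Cox8b and Cox8c. Intervals of shares and the limits for 0 counts cover counting error only, while intervals of fold changes include the spread between animals, and 4 animals per genotype limit the test to differences larger than the spread between animals.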
